A study of Mus musculus with 18 samples.

Results

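The genes described here are the 225 transcripts that were most reduced in eIF2α S51A mouse embryonic fibroblasts between 0 and 120 min of hydrogen peroxide. A gene was taken if it had a single symbol, was listed in the deposited tables for 0 and 120 min, and had an FPKM of at least 5 in S51A at 0 min. FPKM, the unit of the tables, is a level scaled by transcript length and library size. Its change was log2 of (FPKM + 1) at 120 min over (FPKM + 1) at 0 min, less the median change of all 4328 shared genes, and had to be at most -1. Of 3393 eligible genes 242 met these values, which is 7.13%, and 17 of them were left out because their names start with Zfp, Slc, Hox, Col or Fox. The remaining 225 are 6.63% of the eligible genes. They were chosen by their S51A values at 0 and 120 min, so their S51A course is a description, and what the choice did not use is their course in the wild-type line, their levels at 15 min and the features of their transcripts.

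RNA came from immortalized mouse embryonic fibroblast lines, 1 of wild-type (WT) genotype and 1 of eIF2α S51A genotype. eIF2α S51A carries alanine in place of the serine of this translation factor that stress kinases phosphorylate. Cells of each line were left untreated (0 min) or given 500 µM hydrogen peroxide for 15 or 120 min, which makes 6 groups with 3 samples each in the labels, while the design text of the series speaks of duplicates. The labels do not say that the samples of a group are separate cultures, and with 1 line of each genotype, genotype and line cannot be told apart.

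The level of an mRNA is the balance of its synthesis and its decay, so a transcript becomes scarcer when its gene is read less or when it is degraded faster. Transcripts of transcription factors, signalling regulators and cell cycle genes are typically short-lived, while those of housekeeping and structural proteins are typically stable. Phosphorylated eIF2α lowers translation initiation under stress, and the S51A protein cannot be phosphorylated at this site.

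The deposited tables give 1 value per line and time, so no spread between samples could be computed, and a change over time has no error and no test. The authors' test compared S51A with WT at each time, and only genes with a q-value of at most 0.05 are listed, so every gene here differed between the lines at both 0 and 120 min. A transcript reduced alike in both lines from a like level could therefore not be among the 225. The median change before centring was -0.18 in S51A and -0.10 in WT over the 4328 shared genes. Library depth is unknown, and in bulk RNA fewer cells with a transcript and less of it per cell cannot be told apart. Eif2s1, which encodes eIF2α, had FPKM of 91.8, 90.5 and 97.7 in WT and 45.3, 45.6 and 57.7 in S51A at 0, 15 and 120 min, which does not show the mutated codon. At 0 min 10 of 12 fibroblast markers were listed, at 6.15 to 1160 FPKM in S51A and 3.71 to 1872 in WT. None of the 8 epithelial or 7 endothelial markers was listed. A marker that is not listed may be at a like level in both lines, so this does not show that it was absent. Of 8 macrophage or leukocyte markers 3 were listed, at up to 10.5 FPKM in S51A and 15.1 in WT. Of 7 smooth muscle or myofibroblast markers 3 were listed at 0 min, summing to 125 FPKM in S51A and 24.5 in WT, and 4 at 120 min, with Tagln added, summing to 389 and 101. Acta2, smooth muscle actin, was at 111 FPKM in S51A at 0 min and 163 at 120 min, and at 23.6 and 24.1 in WT. Of 7 neural markers 3 were listed at both times, summing to 113 and 104 FPKM in S51A and 74.3 and 68.4 in WT. The part of these differences in the results was not tested. Of all markers, 1, Pdgfrb, was among the 225 genes.

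In S51A the centred log2 change of the 225 genes had a median of -1.23, with quartiles of -1.51 and -1.11 and a range of -2.50 to -1.0. Their median level was 14.6 FPKM at 0 min and 4.56 FPKM at 120 min, with 13.2 FPKM at 15 min over the 172 genes listed there. In WT their median level was 9.13 FPKM at 0 min and 6.45 FPKM at 120 min, with 10.9 FPKM at 15 min over the same 172 genes. A change of at most -1.5 was reached by 58 genes and of at most -2 by 7, namely Osr1, Klf3, Gas1, Trib2, Cdk12, Filip1l and Fzd7.

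Osr1, a zinc-finger transcription factor of kidney and limb development on chromosome 12 (9570116 to 9581500 in GRCm38), had the lowest S51A change. Its S51A level was 15.1 FPKM at 0 min, 13.3 at 15 min and 1.52 at 120 min, which is 9.99-fold lower at 120 min than at 0 min. In WT it was 38.6, 42.2 and 9.32 FPKM, 4.14-fold lower at 120 min. Both lines thus held most of the transcript at 15 min, and WT had the higher level at each time.

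Klf3, a Krüppel-like transcriptional repressor, was at 14.5 FPKM in S51A at 0 min and 1.47 at 120 min, and at 9.71 and 6.59 FPKM in WT. S51A had more of it before peroxide and less after. Klf3 was not listed at 15 min, as were 53 of the 225 genes, and no value can be given for them there. Gas1, a membrane-anchored co-receptor for Hedgehog ligands, was at 76.6, 78.2 and 11.5 FPKM in S51A and at 9.65, 9.92 and 2.01 in WT. Its S51A level stayed above WT at all 3 times. Trib2, a pseudokinase that acts as a scaffold for protein degradation, was at 13.8, 13.8 and 1.59 FPKM in S51A and at 3.71, 4.20 and 0.901 in WT.

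Cdk12 encodes a kinase of the RNA polymerase II tail. It was at 15.9, 13.2 and 2.62 FPKM in S51A and at 22, 29.2 and 8.75 in WT, so that the lines had moved apart by 15 min. Filip1l, a filamin-interacting protein, was at 71.5, 62.2 and 14.6 FPKM in S51A and at 57.7, 76.1 and 46.2 in WT. S51A was the higher line at 0 min and the lower one at 15 and 120 min. The Wnt receptor gene Fzd7 was at 32.9, 35.0 and 6.41 FPKM in S51A and at 9.13, 11.2 and 2.93 in WT.

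The next 5 genes by S51A change were Ston1, Samd9l, Mesdc1, Casc5 and Txnip, at -1.94 to -1.98. Casc5, a kinetochore scaffold also called Knl1, was at 19.6 FPKM in S51A at 0 min and 3.71 at 120 min, and at 12.7 and 10.6 FPKM in WT. Txnip, which binds thioredoxin and restrains glucose uptake, was at 29.7, 38.1 and 6.06 FPKM in S51A and at 3.89, 4.41 and 1.54 in WT. Its S51A level was thus higher at 15 min than at 0 min before it was lowest at 120 min.

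**Figure D1:**
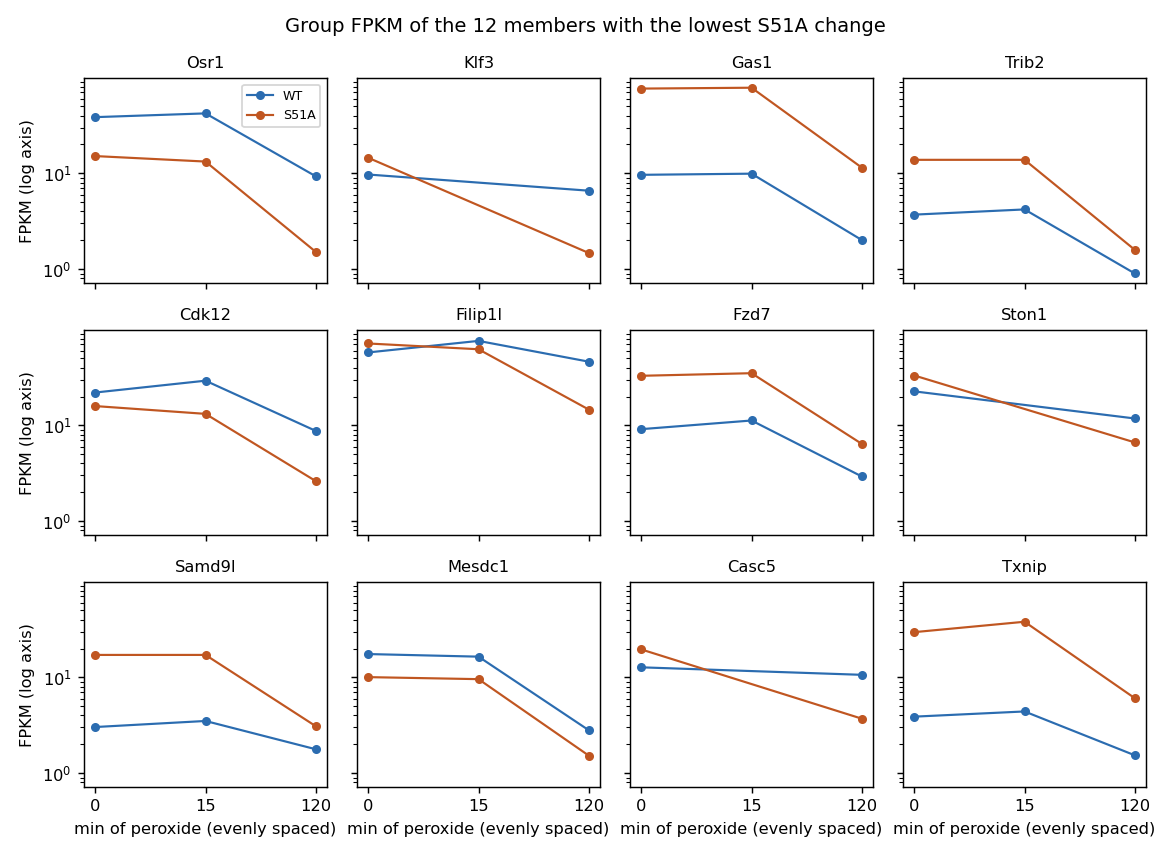
FPKM (log axis) of the 12 genes with the lowest S51A change against min of peroxide, evenly spaced, with 1 point per line and time and WT in blue, S51A in orange. Where no point stands at 15 min the gene was not listed there. In 9 of 9 genes with a 15 min value the S51A level at 120 min was below that at 15 min. This follows largely from their choice by the lowest S51A change.

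In WT the same 225 genes had a median change of -0.18, with quartiles of -0.53 and 0.10 and a range of -2.18 to 0.62. The median over all eligible genes in WT was -0.01. The WT change was below 0 for 153 of the 225 genes, beside 52.4% of all eligible genes. It was at most -1 for 27, or 12%, where 1.8% of all eligible genes and 34 of the 3168 other eligible genes, or 1.07%, did the same. For 126 genes it lay between -1 and 0, and for 72 it was above 0. The rule set no minimum in WT, and after centring a gene with an unchanged WT level has a change of 0.10. The 72 therefore include genes without a higher WT level at 120 min. Examples are Pax8 and Tbx1, listed at 0 FPKM in WT at each time, and Kat6a, at 12 FPKM and then 11.2. The WT and S51A values of a gene come from the same tables, and listing needed a difference between the lines at both times, so these shares describe the listed genes.

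**Figure D2:**
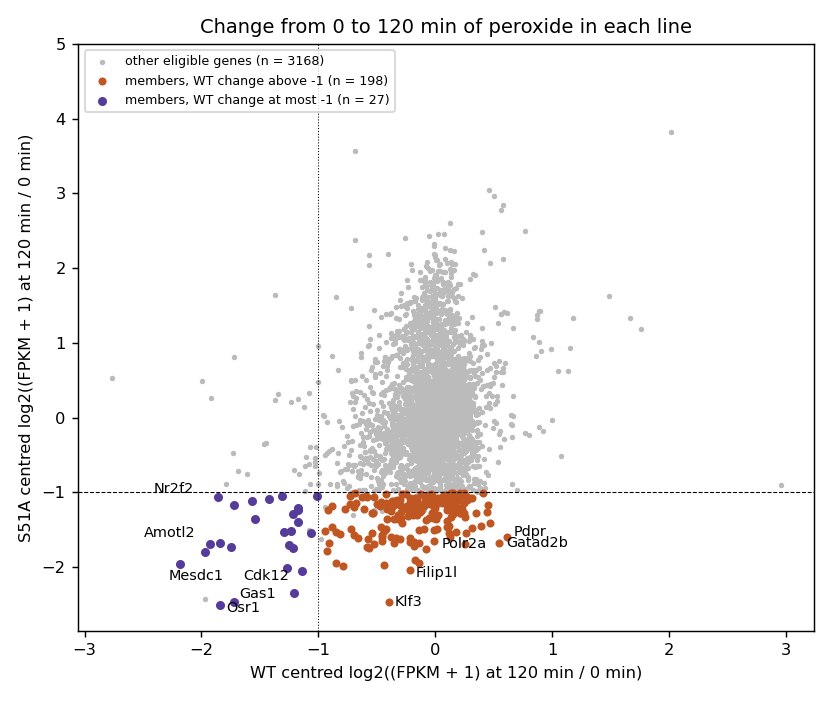
Centred log2 change from 0 to 120 min in S51A (vertical) against WT (horizontal), 1 point per eligible gene, with dashed and dotted lines at -1. The 27 genes at most -1 in both lines form the lower left group, and the WT change of the other 198 lies above -1 and up to 0.62.

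Among the 27 genes that were lower in both lines were Mesdc1, Pcdh18, Ajuba, Nr2f2, Amotl2, Osr1, Rnd3 and Cited2, which had the lowest WT changes. Ajuba and Amotl2 act in the Hippo pathway, in which LATS kinases hold back the coactivators YAP and TAZ, and both are known as targets or regulators of YAP and its DNA-binding partners, the TEAD factors. Amotl2 was the most abundant of the 225 in S51A at 0 min, at 122 FPKM there, 125 at 15 min and 32.9 at 120 min. In WT it was at 89.9, 107 and 22.6 FPKM. Ajuba was at 33.6, 33.6 and 8.51 FPKM in S51A and at 21.9, 21.7 and 4.63 in WT. In both genes S51A exceeded WT at each time, and the reduction by 120 min was at least as large in WT (3.97-fold for Amotl2 and 4.72-fold for Ajuba) as in S51A (3.71-fold and 3.94-fold).

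The 250 bases before the RefSeq start of these 2 genes are shown because both hold GGAATG, the core letters bound by TEAD factors, or its reverse complement CATTCC. Capitals mark the matches, in GRCm38.p6, written 5′ to 3′ on the strand of the gene, chr14:54577662-54577911 (minus strand) for Ajuba and chr9:102717554-102717803 (plus strand) for Amotl2.
Ajuba: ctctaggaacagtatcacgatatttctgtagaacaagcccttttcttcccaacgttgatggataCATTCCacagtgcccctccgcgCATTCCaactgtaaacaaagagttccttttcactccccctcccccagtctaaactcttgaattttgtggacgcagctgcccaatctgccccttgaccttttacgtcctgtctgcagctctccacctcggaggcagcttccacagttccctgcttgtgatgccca
Amotl2: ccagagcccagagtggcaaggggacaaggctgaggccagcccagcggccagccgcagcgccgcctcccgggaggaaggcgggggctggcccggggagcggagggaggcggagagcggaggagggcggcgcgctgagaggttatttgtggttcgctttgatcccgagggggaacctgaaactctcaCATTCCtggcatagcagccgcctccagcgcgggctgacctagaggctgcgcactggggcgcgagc
Over windows of 300 bases, which add the 50 bases after the start, 4 of 22 promoters of the genes lower in both lines held the motif on either strand (18.2%). It was in 23 of 177 promoters of all members (13.0%), 310 of 2727 eligible promoters (11.4%) and 4817 of 32851 promoters in the RefSeq table (14.7%). The match is common, and it describes letters in a window, not a bound site.

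Other genes of this group regulate transcription, the cytoskeleton and signalling. Cited2, a coregulator that binds CBP and p300, was at 95, 91.8 and 36.8 FPKM in S51A and at 202, 197 and 56.5 in WT. Nr2f2, the nuclear receptor COUP-TFII, was at 18.6, 19.6 and 7.36 FPKM in S51A and at 57.3, 53.4 and 14.0 in WT. In both of these the WT line started higher and had the larger reduction. Rnd3, an atypical small GTPase that opposes contractility, was at 75.6, 75.1 and 19.4 FPKM in S51A and at 21.3, 22.2 and 5.21 in WT. Pcdh18, a protocadherin, was at 38.6 FPKM in S51A at 0 min and 9.06 at 120 min, and at 26.9 and 5.66 FPKM in WT. Mesdc1 had the lowest WT change of the 225, -2.18, with 17.5, 16.4 and 2.81 FPKM in WT and 10.1, 9.58 and 1.53 in S51A. The WT change was below the S51A change in 11 genes in all, these 5 together with Ajuba, Amotl2, Dusp5, Clec2d, Fzd2 and Fbxl8. The last 3 were named after their values were seen. This order holds for the centred change of FPKM + 1. By fold of FPKM alone, Mesdc1 and Dusp5 were reduced more in S51A, Mesdc1 6.59-fold there and 6.23-fold in WT. For Rnd3 the 2 changes were close, at -1.74 in WT and -1.73 in S51A. Of the 27 genes 13 were higher in S51A than in WT at 0 min (eligible genes 47.8%) and 13 at 120 min (eligible genes 52.6%). These counts lie near the shares of all eligible genes. Between these times 0 of the 27 changed side. Of eligible genes, 7.84% went from higher to lower in S51A and 12.6% from lower to higher. A gene reduced in WT can go from higher to lower in S51A only if its S51A reduction is larger still.

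At the other end were members with more transcript in WT at 120 min than at 0 min. The 8 with the highest WT change were Pdpr, Gatad2b, Tnks, Smg1, Dpy19l4, Herpud1, Cbl and Trip11, at 0.35 to 0.62. Gatad2b, a subunit of the NuRD chromatin remodeller, was at 9.92 FPKM in WT at 0 min and 13.9 at 120 min, and at 18.5 and 4.41 FPKM in S51A. Pdpr, the regulatory subunit of pyruvate dehydrogenase phosphatase, was at 3.39 and 5.28 FPKM in WT and at 7.73 and 1.55 in S51A. Tnks, a poly(ADP-ribose) polymerase named tankyrase, was at 10.7, 17.3 and 14.1 FPKM in WT and at 17.9, 14.7 and 5.28 in S51A. In each of these 3 the S51A line went from the higher to the lower level.

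At 15 min the S51A level of the genes was close to that at 0 min. Over the 172 genes listed there the median S51A change was -0.14, beside 0.00 over all eligible genes, and the change was below 0 in 143 of 172 (eligible genes 50.4%) and at most -1 in 0 (eligible genes 0.0336%). In WT the median change was 0.22, beside 0.00, and it was above 0 in 146 of 172 (eligible genes 50.7%). The 15 min and 120 min changes share the 0 min value, which in S51A was used to choose the genes, so part of the S51A shift at 15 min may come with that choice, and this was not tested. The 15 min changes of both lines also moved with transcript length over all eligible genes, as given below, and the chosen transcripts were long.

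The members with the lowest S51A change at 15 min were Dusp5, Cbl, Huwe1, Ubr4, Birc6 and Xrn1, at -0.58 to -0.47. Huwe1, a HECT-type ubiquitin ligase on the X chromosome, was at 36.8, 25.8 and 12.3 FPKM in S51A and at 29.7, 45.3 and 33.1 in WT. Ubr4, a ubiquitin ligase of the N-degron pathway, was at 16.9, 12 and 5.66 FPKM in S51A and at 11.2, 16.7 and 11.8 in WT. Their S51A level was lower at each later time, while the WT level was highest at 15 min. Dusp5, a nuclear phosphatase of ERK, was at 10.1, 6.5 and 2.81 FPKM in S51A and at 31.3, 34.8 and 9.38 in WT.

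The highest S51A changes at 15 min were those of Ddit4, Txnip, Irgm2, Fam43a, Tbx1 and Dmrta2, at 0.12 to 0.34. Ddit4, a stress-induced inhibitor of mTORC1 and a known target of ATF4, was at 30.5, 39.4 and 11.1 FPKM in S51A and at 17.8, 23.6 and 18.4 in WT. The level at 15 min was above that at 0 min in both lines, and that at 120 min was below it in S51A. Tbx1, a T-box factor of pharyngeal development, was at 7.62, 8.94 and 2.23 FPKM in S51A and is listed at 0 in WT at each time, as is the paired-box factor Pax8, which was at 11.2, 11.4 and 3.16 FPKM in S51A.

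The authors' deposited tables place S51A above WT at 0 min for 188 of the 225 genes and below WT for 37, beside 47.8% and 52.2% of eligible genes. At 15 min 98 of 172 genes were higher in S51A and 74 lower, beside the same 47.8% and 52.2%. At 120 min 73 were higher and 152 lower, beside 52.6% and 47.4%. A gene was listed at 15 min only if the lines differed there. The 172 genes listed held all 37 genes lower in S51A at 0 min and 100 of the 152 lower at 120 min. The 53 genes not listed were thus all higher in S51A at 0 min, and the 15 min counts leave them out. The sides at 0 and 120 min follow in part from the rule, which picks genes high in S51A at 0 min and low at 120 min. Of the 225 genes 115 were called higher in S51A at 0 min and lower at 120 min, beside 7.84% of eligible genes and 151 of the 3168 others. A further 73 were higher at both times (eligible genes 40%) and 37 lower at both (eligible genes 39.6%). No gene went from lower to higher, beside 12.6% of eligible genes. All 115 genes that changed side were among the 198 with a WT change above -1. Going from higher to lower in S51A needs a larger reduction in S51A than in WT, so this split follows in part from the choice of genes.

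**Figure D3:**
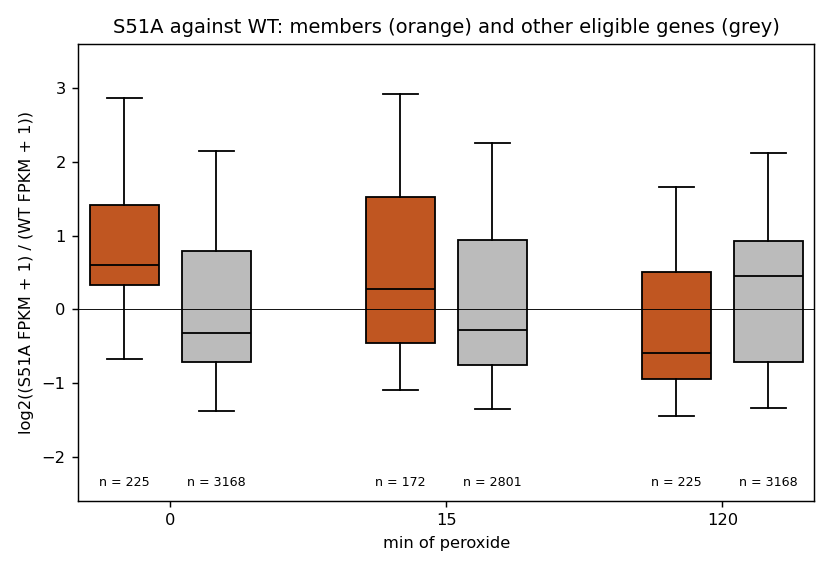
Log2 of S51A (FPKM + 1) over WT (FPKM + 1) at 0, 15 and 120 min for the 225 genes (orange, 172 at 15 min) and the other eligible genes (grey), as boxes from the lower to the upper quartile with the median as a line and whiskers at the 5th and 95th percentiles. The median of the chosen genes was 0.60, 0.27 and -0.59 at the 3 times, and that of the others -0.32, -0.28 and 0.45. The 15 min box leaves out 53 of the 225 genes, all higher in S51A at 0 min.

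The transcripts were long. In GENCODE vM21 the median length of the chosen transcript was 5.64 kb for the 225 genes and 2.98 kb for all eligible genes, with 14 against 9 exons and a gene span of 62.4 against 23.9 kb. The coding part (2.83 against 1.37 kb) and the 3′ untranslated region, or UTR (1.88 against 0.982 kb), were both longer, while the GC content was 49.8% against 50.4%. Of the 225 genes 132 had a transcript above 5 kb (646 eligible genes did) and 7 had one of at most 2 kb (929 eligible genes did). Split into quintiles by length, the shortest held 3 of the genes among 676 eligible ones (0.444%) and the longest 136 among 674 (20.2%).

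Length moved with the S51A change over all eligible genes. The median S51A change at 120 min was 0.98 in the shortest quintile, 0.27, -0.02 and -0.21 in the next 3, and -0.60 in the longest. In WT it lay between -0.04 and 0.04 in all 5. At 15 min the medians went from 0.11 to -0.11 in S51A and, in the opposite direction, from -0.21 to 0.17 in WT. Across 3379 eligible genes Pearson's r between log2 length and the change at 120 min was -0.69 in S51A and 0.03 in WT. Within the 225 genes, whose S51A change the rule limits to at most -1, it was 0.24 in S51A and 0.50 in WT. The limit cuts off the smaller S51A changes, so the S51A value within the 225 cannot be set against that over all eligible genes. Across 2959 eligible genes r with the change at 15 min was -0.60 in S51A and 0.67 in WT. Over the 172 chosen genes listed at 15 min it was -0.68 in S51A and 0.66 in WT. Genes are not independent replicates and share their libraries, so these values describe the tables. A difference in RNA quality or library size selection between samples was not tested, since no values of either were used here.

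**Figure D4:**
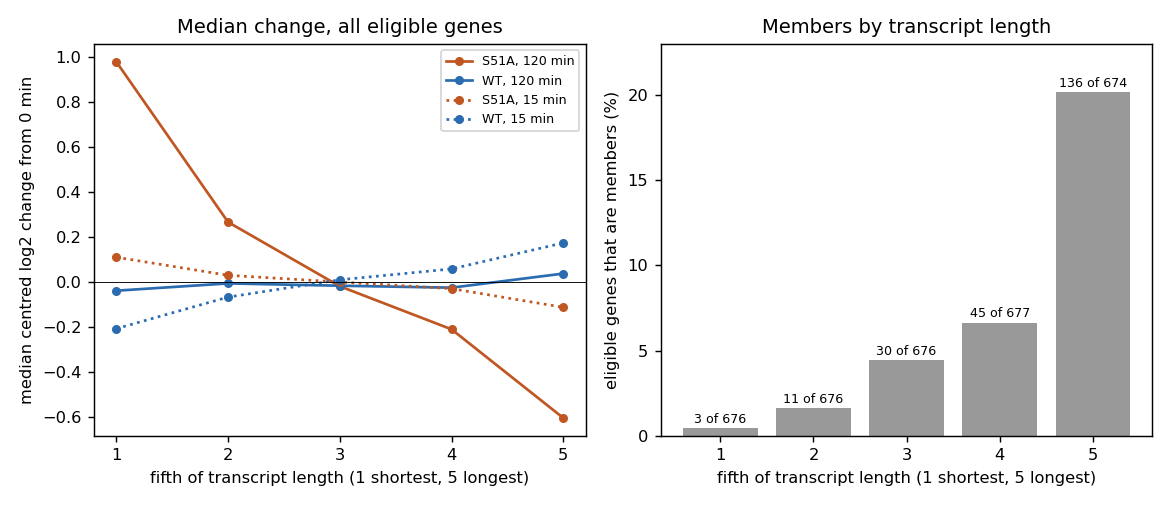
Left, the median centred log2 change from 0 min of all eligible genes in each quintile of transcript length, solid for 120 min and dotted for 15 min, S51A in orange and WT in blue. Right, the percentage of each quintile that was among the 225 genes, which goes from 3 of 676 to 136 of 674.

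When each gene was instead centred on the median of its own length quintile, an alternative chosen after seeing the data, 90 of the 225 genes still had an S51A change of at most -1 and 135 did not. The 90 had a median length of 3.63 kb and the 135 of 7.48 kb. Among the 27 genes lower in both lines 23 passed, and among the other 198 genes 67 did. This centring raises the S51A change of the longest transcripts and lowers that of the shortest. It also reuses the S51A values that chose the genes. The longest quintile held 136 of the 225 genes but 3 of the 27, so this split follows in part from length. Those 27 were the shorter ones, with a median of 3.40 kb and 3 exons against 6.25 kb and 15.5 exons in the other 198. The 72 genes with a WT change above 0 had a median of 7.47 kb and 18 exons. Within the longest quintile the chosen genes had a median WT change at 120 min of -0.05, beside 0.05 in the other genes of that quintile. Their median change at 15 min was -0.22 in S51A, beside -0.10, and 0.34 in WT, beside 0.14.

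The genes were then read by role, with 20 lists of pathway genes that were chosen with earlier results of these data known. Of the 225 genes 80 were in at least 1 list, and 4 lists held none. The lists do not hold every gene of their role, so each share describes its list. For example, Tbx1 is not counted under developmental transcription factors, Gsg2 not under mitosis and Fancf not under repair. How many genes of a list are members, and its S51A median, come from the S51A values the rule used, so they are a description, to be set beside the 6.63% of all eligible genes and the 20.2% of the longest length quintile. The WT medians were not used by the rule. The median transcript length of each list is given with its count.

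**Figure D5:**
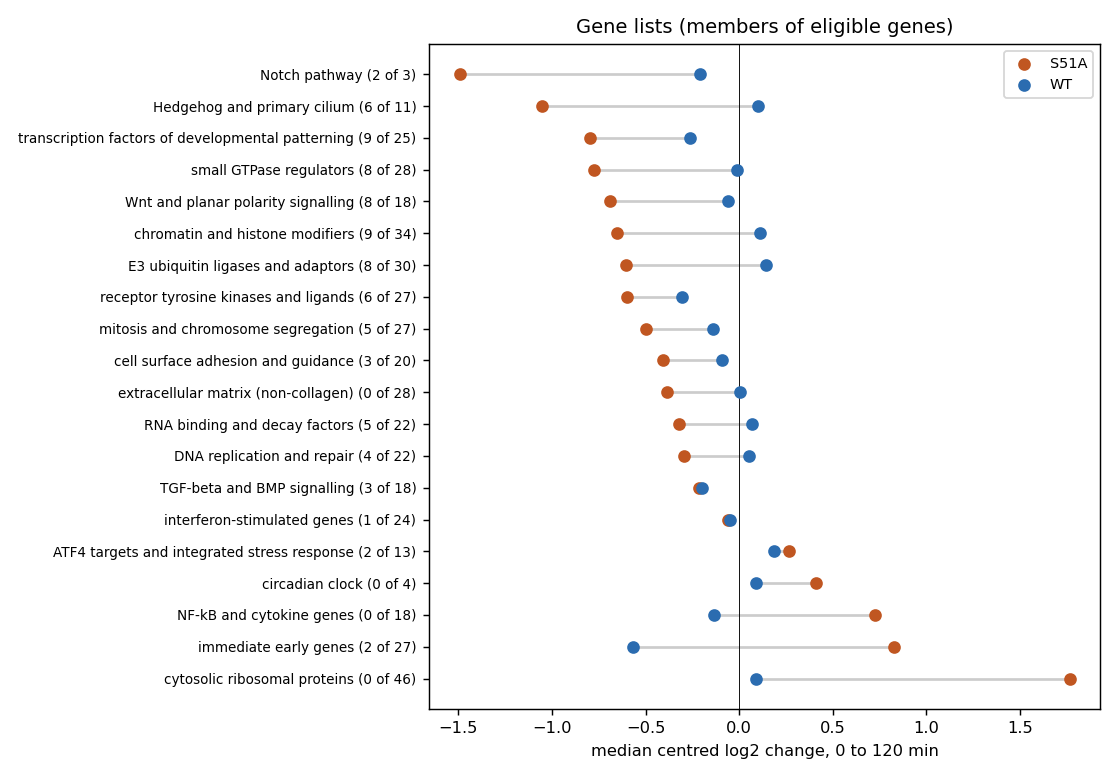
Median centred log2 change from 0 to 120 min of the eligible genes of each list, in S51A (orange) and WT (blue), with the number of chosen genes among the eligible ones in brackets. The lists run from the Notch pathway, at -1.49 in S51A and -0.21 in WT, to the cytosolic ribosomal proteins, at 1.77 in S51A and 0.09 in WT.

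Developmental transcription factors (median length 4.13 kb) gave 9 members of 25 eligible genes (36%), with medians over the list of -0.80 in S51A and -0.26 in WT. Besides Osr1 they include Snai1, a repressor of epithelial genes, which was at 22.5, 23.8 and 5.86 FPKM in S51A and at 33.8, 40.5 and 22.8 in WT. Trps1, a GATA-type repressor of cartilage development, was at 13.8, 11.3 and 3.34 FPKM in S51A and at 3.76, 4.89 and 2.43 in WT. For Trps1 the S51A level at 120 min was still above WT, and for Snai1 it was below WT at each time.

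Wnt signalling (3.99 kb) gave 8 members of 18 (44.4%). They were the receptors Fzd7, Fzd1 and Fzd2, the ligand Wnt5a, the transducer Dvl3, the coactivator Bcl9l, the destruction complex scaffold Apc and the protocadherin Fat1. Their list had medians of -0.69 in S51A and -0.06 in WT. In WT the receptors and the transducer took different courses. Fzd1 was at 9.0, 9.71 and 2.10 FPKM in S51A and at 2.04, 2.35 and 1.10 in WT. Dvl3 was at 13.9 and 4.44 FPKM in S51A at 0 and 120 min and at 7.57 and 8.28 in WT. Bcl9l was at 19.7, 16.7 and 4.76 FPKM in S51A and at 8.88, 11.6 and 7.16 in WT.

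Hedgehog and primary cilium genes gave 6 members of 11 (54.5%), with list medians of -1.05 in S51A and 0.10 in WT and a median length of 6.86 kb. This WT median is the centred value of a gene with an unchanged WT level. Boc, a Hedgehog co-receptor like Gas1, was at 7.52, 7.52 and 1.77 FPKM in S51A and near 0 in WT, at 0.213, 0.247 and 0.228. Gpr161, a ciliary receptor that holds Hedgehog signalling down, was at 5.06, 4.63 and 1.42 FPKM in S51A and at 3.66, 6.23 and 3.53 in WT. The other members were Cep350, Alms1 and Ttbk2, which act at the centrosome and the base of the cilium. Of the 3 eligible Notch pathway genes, the receptor Notch2 and the corepressor Spen were members, with a list length of 10.5 kb. Both were named because only they were found.

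Receptor tyrosine kinases and their adaptors (4.18 kb) gave 6 members of 27 (22.2%), with list medians of -0.60 in S51A and -0.30 in WT. Ephb4, an ephrin receptor, was at 25.5, 24.4 and 6.92 FPKM in S51A and at 20.0, 20.1 and 11.1 in WT. Ephb3 was at 16.7, 16.2 and 4.66 FPKM in S51A and at 2.89, 2.64 and 1.64 in WT. Irs1, the adaptor of the insulin receptor, was at 8.11, 7.41 and 1.83 FPKM in S51A and at 10.3, 12.6 and 3.48 in WT. Of these, Irs1 was also at most -1 in WT. TGF-β and BMP signalling (4.03 kb) gave 3 of 18 (16.7%), the inhibitory Smad6, the effector Smad3 and the receptor Bmpr2, with list medians of -0.22 and -0.20.

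Regulators of small GTPases (5.63 kb) gave 8 members of 28 (28.6%), with list medians of -0.77 in S51A and -0.01 in WT. Arhgap5, a GTPase-activating protein, was at 38.9, 33.6 and 9.45 FPKM in S51A and at 16.9, 24.8 and 14.8 in WT. Arhgap31, which acts on Rac and Cdc42, was at 14.7, 12.9 and 3.23 FPKM in S51A and at 6.36, 8.57 and 5.06 in WT. In both, S51A was above WT at 0 min and below it at 120 min. Adhesion and guidance genes (5.33 kb) gave 3 of 20 (15%), Pcdh18, Sema4b and Plxna1, and 28 eligible genes of the non-collagen matrix (4.81 kb) gave 0.

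Chromatin and histone modifiers gave 9 members of 34 (26.5%), with list medians of -0.65 in S51A and 0.11 in WT and a median length of 8.15 kb. Kat6a, a histone acetyltransferase, was at 18.8 and 5.86 FPKM in S51A at 0 and 120 min and at 12 and 11.2 in WT. Crebbp, the acetyltransferase CBP, was at 8.40, 6.41 and 2.64 FPKM in S51A and at 6.36, 8.88 and 6.59 in WT. Nsd1 and Setd1b, histone methyltransferases, had S51A changes of -1.19 and -1.15 and WT changes of -0.26 and -0.05. None of the 9 was at most -1 in WT.

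E3 ubiquitin ligases and adaptors gave 8 members of 30 (26.7%), with list medians of -0.60 in S51A and 0.14 in WT and a median length of 6.32 kb. Cbl, the ligase that marks activated receptor tyrosine kinases, was at 9.0, 5.98 and 2.25 FPKM in S51A and at 6.06, 11.2 and 7.67 in WT. Socs5, a suppressor of cytokine signalling, differed from the others in this list, at 37.5, 36.8 and 13.0 FPKM in S51A and 55.3, 61.8 and 21.7 in WT, and was at most -1 in both lines.

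RNA binding and decay factors (4.39 kb) gave 5 members of 22 (22.7%), with list medians of -0.32 in S51A and 0.07 in WT. Xrn1, the exonuclease that degrades decapped mRNA from the 5′ end, was at 8.63, 6.06 and 1.96 FPKM in S51A and at 5.82, 9.45 and 6.19 in WT. Smg1, the kinase of nonsense-mediated decay, was at 12, 8.75 and 4.11 FPKM in S51A and at 9.71, 14.9 and 12.7 in WT. Cnot1, the scaffold of the deadenylase complex, was at 48.8, 39.7 and 18.9 FPKM in S51A and at 38.9, 52.3 and 43.1 in WT. In these 3 the S51A level was lower at each later time and the WT level was highest at 15 min. Their transcripts are 5.50, 15.6 and 8.36 kb long. Btg1, an antiproliferative partner of the deadenylase complex, took another course, at 18.8, 19.2 and 6.87 FPKM in S51A and at 32.9, 36.0 and 18.1 in WT. Its S51A level at 15 min was not below that at 0 min, and its WT change at 120 min was -0.73. The remaining member was Edc3, a decapping factor, with a WT change of -0.46.

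Mitosis genes (3.69 kb) gave 5 members of 27 (18.5%), among them Casc5, the spindle-pole protein gene Aspm, and the kinesins Kif18a and Kif14. Kif18a was at 16.1, 16.6 and 5.58 FPKM in S51A and at 22.6, 21.9 and 8.75 in WT, lower at 120 min in both lines. Aspm was at 16.3 and 4.0 FPKM in S51A at 0 and 120 min and at 9.32 and 5.46 in WT. DNA replication and repair (4.06 kb) gave 4 of 22 (18.2%), the repressors E2f7 and E2f8, the recombination gene Brca2 and the damage kinase Atm. E2f7 was at 15.2, 13.8 and 5.98 FPKM in S51A and at 10.1, 10.9 and 4.17 in WT. Atm was at 9.92, 8.06 and 3.73 FPKM in S51A and at 12, 16.3 and 10.8 in WT.

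Stress and immune lists had shorter transcripts than the 225 genes. ATF4 targets (1.99 kb) gave 2 of 13 (15.4%), Ddit4 and Herpud1, while the list medians were 0.26 in S51A and 0.19 in WT. Herpud1, an endoplasmic reticulum protein of misfolded protein disposal, was at 36.3, 37.5 and 15.5 FPKM in S51A and at 26.4, 24.3 and 32.9 in WT. Immediate early genes (2.46 kb) gave 2 of 27 (7.41%), Dusp5 and Btg1, with list medians of 0.82 in S51A and -0.57 in WT. The list of interferon-stimulated genes (2.67 kb) gave 1 of 24 (4.17%), Parp14, named after its values were seen. The members Irgm2 and Samd9l are not counted under this list. The 18 NF-κB and cytokine genes (2.44 kb), the 4 circadian genes (3.39 kb) and the 46 cytosolic ribosomal protein genes gave 0. The ribosomal transcripts had a median length of 0.792 kb and the highest list median in S51A, 1.77.

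The 3′ UTRs were searched for short letters known to be read by decay factors, on the transcript strand. TGTANATA, the motif of Pumilio proteins, which recruit deadenylases, stood in 105 of 223 UTRs of the genes (47.1%) and in 840 of 3344 eligible UTRs (25.1%), or 0.332 against 0.256 matches per kb. By UTR length the share was 27.1% against 10.6% in other eligible genes up to 1 kb, 31.7% against 27.7% from 1 to 2 kb, 65.5% against 43.6% from 2 to 4 kb, and 69.6% against 62.0% above 4 kb. Matches per kb in these classes were 0.625 against 0.269, 0.258 against 0.264, 0.405 against 0.232, and 0.272 against 0.233. From 1 to 2 kb the density was thus not higher in the chosen genes. ATTTA, the core of AU-rich elements, stood in 87.4% against 68.1% of UTRs, at 1.79 against 1.85 per kb, and the longer TTATTTATT in 9.42% against 6.97%, at 0.0417 against 0.0581 per kb. The lines below show the first Pumilio motif, in capitals with the bases around it, in genes at both ends of the WT range, Mesdc1 and Amotl2 with WT changes of -2.18 and -1.85 and Gatad2b and Cbl with WT changes of 0.55 and 0.39, from GENCODE vM21 transcripts on GRCm38.
Mesdc1: ggcttttcTGTAGATAaataaattt
Amotl2: gtgtgtttTGTATATAattcttttt
Gatad2b: ctcattcaTGTATATAagctatttc
Cbl: acatacgaTGTACATAtatacaggc
These matches are descriptions of letters, and binding was not measured.

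At the threshold, the 3 members just inside were Vps13a, Xpr1 and Herpud1 and the eligible genes just outside included Pi4ka and Kif1b, with S51A changes of -1.01 to -1.0 on the inner and -1.0 on the outer side. Vps13a, a lipid transfer protein, was at 8.40, 6.96 and 3.14 FPKM in S51A and at 6.82, 10.2 and 7.46 in WT. Kif1b, a kinesin that carries organelles, was at 28.1, 24.8 and 11.9 FPKM in S51A and at 22, 28.2 and 20.5 in WT. In both genes the S51A level was lowest at 120 min and the WT level was highest at 15 min, so the threshold parts genes of like course here. Herpud1 took another course, with its WT level lowest at 15 min, at 24.3 FPKM, and highest at 120 min, at 32.9. Xpr1 and Pi4ka had no value at 15 min.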

How the data were processed

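Polyadenylated RNA of 18 samples in 6 groups was sequenced from one end on directional libraries, per the labels' protocols. STAR, Cufflinks and Cuffdiff on mm10 come from the submitters' processing notes, without versions or roles, and no source used here gives the annotation. Per the file headers, the authors' 3 tables, 1 for each time, hold the log2 FPKM of WT and S51A, their log2 ratio and the q-value of their difference, 1 value per group. Every deposited q-value was at most 0.05, and a deposited log2 FPKM of -10 was read as 0. From 7555, 8308 and 6119 entries, those with several symbols or with symbols turned into dates were left out, leaving 7549, 8289 and 6105. Each table has 1 more numeric column, left unused.

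Changes were computed with Python 3.11.15 and pandas 2.3.3 on log2(FPKM + 1), which understates the change of low genes, and centred on the median of shared genes (4328 for 120 min, 6369 for 15 min). Whether the authors normalized the tables together is unknown, and levels compared across times rest on their common unit. No test over samples could be run, and every count of calls rests on the authors' q-value. Transcript features came from GENCODE vM21, with the protein-coding, principal and then longest transcript of each gene, matched for 225 of 225 genes. Promoters came from RefSeq. The code of the selection rule was run on simulated data with some genes set well below the threshold and no length trend. That run checks the code and not the genes chosen here. The members and lists were chosen with earlier results of these data known. Named genes were the 12 lowest S51A changes, the 10 highest S51A levels, the 8 lowest and 8 highest WT changes, the 6 lowest and 6 highest S51A changes at 15 min, up to 4 per list with at least 3 members, the 3 nearest genes on each side of the threshold, and Eif2s1, and a few of these are not reported here; others are marked or are listed as all members of a short list. Alternatives varied the pseudocount, minimum FPKM, centring, threshold, q-value, fold between lines and length centring.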

Additional observations from a re-analysis of the deposited data

How the results depend on the processing

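Each of the 9 summary values was recomputed under every alternative, except that the minimum fold between the lines applies only to the 3 counts of genes lower in S51A, and a count was held the same within 1.5 times, a median within 0.1 log2 or 0.1 of a length ratio. The values that moved are as follows, where lower means listed lower in S51A than WT at 0, 15 and 120 min (37, 74 and 152 in the report). A pseudocount of 5 FPKM left 71 members, a WT median change of -0.28, 8 with a WT change of at most -1, 13, 25 and 47 lower, and a length ratio to eligible genes of 1.75 (1.90 in the report). A minimum of 10 FPKM gave 100 lower at 120 min. Without centring there were 344 members, with 67, 114 and 236 lower. A threshold of -1.5 gave 58 members, a WT median of -0.49, 15 with a WT change of at most -1, 11, 17 and 34 lower, and a length ratio of 1.53. A deposited q-value of at most 0.001 at both times left 91 members, 14 with a WT change of at most -1, and 18, 31 and 53 lower. A minimum fold of 2 between the lines left 7, 14 and 72 lower. The next 2 alternatives were chosen after seeing the data. Centring within quintiles of transcript length gave 137 members, of which 90 were among the 225, a WT median of -0.40, a WT median at 15 min of 0.0805, 41 and 74 lower at 15 and 120 min, and a length ratio of 0.98. Genes also listed at 15 min gave 100 lower at 120 min and a length ratio of 1.80. In the other 58 combinations the value stayed within these limits, and no median reversed sign. Where the settings above admit fewer or more genes, the counts follow; the cause of the other moves was not tested. No paired analysis was possible because the deposited tables hold 1 value per group, and for the same reason no replicate could be left out. Depth and the spread between samples are unknown, so a gene near the threshold may lie on either side.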

Other observations

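Single-exon genes, which make up 52 of the eligible genes, gave 10 members, or 19.2%, beside 6.63% of all eligible genes. They were Gas1, Fzd7, Mesdc1, Gsg2, Fam43a, Fzd1, Fancf, Itpripl2, Cited2 and Fzd2, chosen after their values were seen. Of these 7 were at most -1 in WT too. Gsg2, the mitotic histone kinase haspin, was at 8.94, 9.65 and 1.71 FPKM in S51A at 0, 15 and 120 min and at 11.8, 12.5 and 4.03 in WT. Fancf, a subunit of the Fanconi anaemia complex, was at 5.46, 5.10 and 1.42 FPKM in S51A and at 11.9, 10.6 and 4.35 in WT. In both genes WT was the higher line at each time. Fam43a was the one with a WT change above 0, at 0.13, and had under 1 FPKM in WT at each time.

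Polr2a, which encodes the largest subunit of RNA polymerase II and was named after its values were seen, was at 50.9, 39.7 and 13.6 FPKM in S51A and at 39.4, 57.3 and 36.5 in WT. Its transcript is 6.74 kb long. The 225 genes lay on 20 chromosomes, with 6 of 97 eligible genes of the X chromosome among them.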
